A study of Rattus norvegicus with 3 samples.

Results

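The genes described here are the Eph receptors, ephrins, Slits, Robos, netrins, netrin-Gs and the netrin receptors Dcc, neogenin and Unc5 in the embryonic rat cerebral cortex. These families were chosen with earlier results of these data known, their members were taken by gene symbol, and 40 of the 29772 genes in the files matched. They comprise 9 EphA receptors, 5 EphB receptors, 5 ephrin-A and 3 ephrin-B ligands, 3 Slits, 4 Robos, 4 netrins, 2 netrin-Gs, Dcc with Neo1, and 3 Unc5 receptors. Unc5d lies outside the symbol rule and is given beside them. RNA of single cortical cells from wildtype rat embryos was counted in 3 droplet libraries, which the submitters labelled E14, E16 and E18 for the embryonic day. All 3 groups were labelled wildtype cerebral cortex, freshly dissociated with papain, with no other treatment named. Part of the protocol text describes cultured, multiplexed and sorted human cells, and whether any of those steps applies to these rat libraries is not known. Each label has 1 library, and the number of embryos behind it is not given in the sources used here. No difference therefore has a replicate check or a p-value.

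Guidance genes encode ligands and receptors that steer migrating neurons and growing axons. Eph receptors are receptor tyrosine kinases that bind ephrins on neighbouring cells, and ephrins can also pass a signal into the cell that carries them. Slits are secreted ligands of Robo receptors and mostly repel. Netrins are secreted ligands that attract through Dcc and repel through Unc5 receptors. In the developing cortex these families are known for roles in the migration of newborn neurons, in the positioning of layers and in the routing of callosal and corticofugal axons.

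The deposited files held 62740631, 80974234 and 73727823 counts of unique molecular identifiers (UMIs) in the libraries labelled E14, E16 and E18. After filtering, 4286, 4977 and 5431 cells remained, with 7 or 8 cell barcodes shared by any 2 libraries. Genes of early and late radial glia did not follow the label order. Hmga2, an early gene, had 11.8, 225.2 and 21.3 counts per 1000000 UMIs of the class (CPM) in radial glia of the libraries labelled E14, E16 and E18. Aldoc, a late gene, had 726.3, 17.1 and 241.2 CPM. Libraries are therefore called by their labels, and no difference between them is read as a change with age. Radial glia numbered 402, 3029 and 1801 cells in label order, intermediate progenitors 443, 396 and 926, newborn excitatory neurons 929, 614 and 1858, and maturing excitatory neurons 2407, 1 and 550. Maturing neurons of the library labelled E16 were left out for that reason. The same class was made of different clusters in different libraries. Of the 3029 radial glia labelled E16, 2990 lay in 3 clusters, and 394 of the 402 labelled E14 lay outside those clusters. Newborn neurons labelled E14 lay in 1 cluster (913 of 929), and those labelled E16 in another, led by Cntnap2, Nhlh2 and Calb1 (604 of 614). Intermediate progenitors lay in the same 3 clusters in all libraries, in different proportions. One of these held 263 of the 443 cells labelled E14, 61 of the 396 labelled E16 and 365 of the 926 labelled E18. Clusters were made without the guidance genes. Every marker fixed for radial glia, intermediate progenitors and newborn neurons had UMIs in its class in each library. Clusters were named by these markers and any UMI was enough, so this could hardly fail and is no check of the classes. Marker levels of radial glia summed to 9887 CPM with label E14, 4406 with E16 and 6179 with E18. For newborn neurons the sums were 8500, 5540 and 7490 CPM, and for intermediate progenitors 5204, 6025 and 5240 CPM. With looser cell filters, without removing doublets, or with another naming setting, fewer than 50 newborn neurons labelled E14 kept that name. That naming setting, with 10 CPM added to each level, also left 10 of the 614 newborn neurons labelled E16. Their cluster had Cajal-Retzius cells as its second-best class and shares Nhlh2, Calb2, Cntnap2, Cnr1 and Pcp4 with the 10 leading genes of the Cajal-Retzius cluster. Of the 2407 maturing neurons labelled E14, 989 lay in a cluster with marker scores of 0.468 for maturing and 0.432 for newborn neurons. At a clustering resolution of 0.5, maturing neurons labelled E14 numbered 1412 and newborn neurons labelled E14 1914. Radial glia moved too. Naming with 10 CPM added left 2002 of the 3029 labelled E16. Clustering each library on its own gave 170 radial glia labelled E14, against 402. Most newborn neurons labelled E18 lay in clusters with 929 and 903 of them, with 98.8 and 35.1 CPM of Neo1 and 5.00 and 20.3 CPM of Ephb6. The values of newborn neurons, and of radial glia labelled E14 and E16, therefore rest on how the classes were drawn. So do those of maturing neurons labelled E14.

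Levels are CPM of the UMIs summed over a class in a library. Values in parentheses after a level are exact Poisson 95% intervals, which cover counting error only. Of the 40 genes, 28 reached 20 CPM in at least 1 class and library of at least 50 cells and are described by library. The other 12 are given by their range or highest class, and highest levels are over classes and libraries of at least 50 cells unless summed over libraries. A gene counts as 2-fold apart when the ratio with 1 CPM added is at least 2-fold and the higher group has at least 5 CPM. The 24 guidance genes that averaged at least 5 CPM over the libraries were compared, beside 10234 such genes in all. The other 16 could not pass that minimum and stand in no count.

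**Figure D1:**
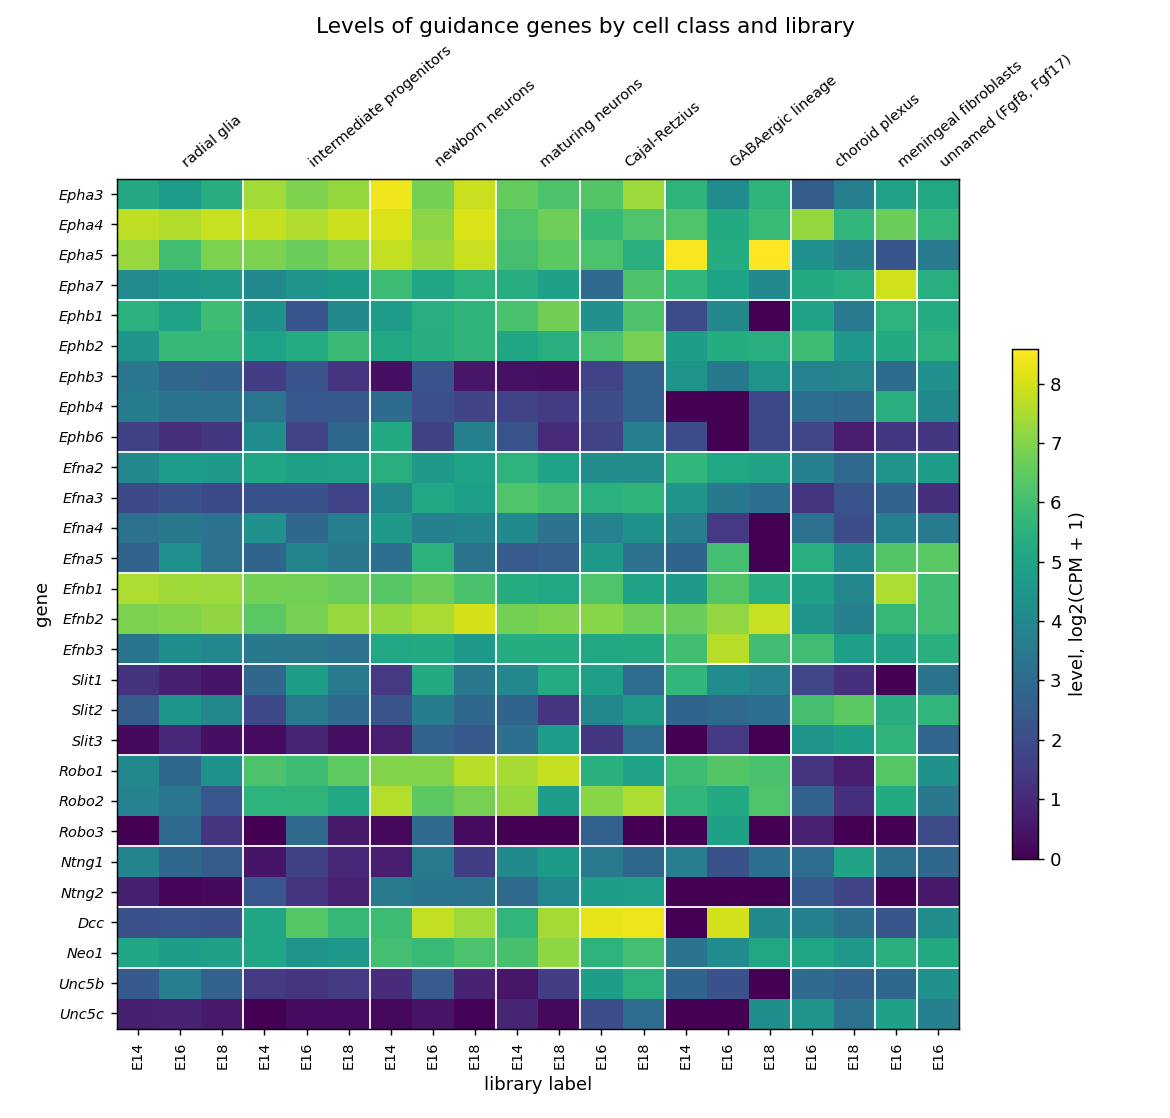
Levels of the 28 guidance genes that reached 20 CPM, as log2(CPM + 1) in colour, with genes in rows grouped by family and classes with library labels in columns. Epha4, Efnb1 and Efnb2 are high from radial glia to newborn neurons, Robo1, Robo2 and Dcc are low in radial glia and high in neurons, and Epha7 is highest in meningeal fibroblasts.

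Newborn excitatory neurons carried more Robo1, Robo2, Dcc, Efna3 and Epha3 RNA than radial glia, the neural stem cells, in every library. In the library labelled E14, 10 of 24 guidance genes were at least 2-fold higher in newborn neurons, where 11.7% of all tested genes were, and 2 were lower, where 17.3% were. In the library labelled E16 the counts were 9 higher and 2 lower, beside 13.3% and 16.4% of all tested genes. In the library labelled E18 they were 10 higher and 4 lower, beside 12.2% and 16.6%. Under at least 1 alternative setting, Efna3, Efna4, Efnb1 and Epha7 with label E14 were less than 2-fold apart. So were Efna5, Ephb4, Neo1 and Unc5b with label E16, and Efnb1, Epha5, Ephb4, Neo1, Slit2, Unc5a and Unc5b with label E18. The median log2 ratio of the 24 genes was 0.79, 0.61 and 0.76 in label order, and that of all tested genes was -0.11, -0.07 and -0.08. Epha3, Efna3, Robo1, Robo2 and Dcc were at least 2-fold higher in all 3 libraries, which makes 5 of 24, beside 8.07% of all tested genes. None of the 24 was 2-fold lower in all 3, beside 11.6% of all tested genes. Robo1, Robo2 and Dcc also had intermediate progenitors between radial glia and newborn neurons in every library. Newborn neurons had fewer UMIs per cell than radial glia, with medians of 7219, 8545.5 and 8188 against 12944.5, 13554 and 12654 in label order. They also had more mitochondrial UMIs, with medians of 7.60%, 5.80% and 5.68% against 5.33%, 3.59% and 4.42%. Haemoglobin RNA was 2062, 781.0 and 318.0 CPM in newborn neurons and 97.6, 536.3 and 222.6 CPM in radial glia. Newborn neurons labelled E14 stood apart from the other neural classes of their library, where intermediate progenitors had 107.9 and maturing neurons 95.2 CPM of haemoglobin RNA. Endothelial and mural cells labelled E14 had more, at 82909 and 214356 CPM. Among 6 tested genes of dissociation stress, 3, 2 and 2 were at least 2-fold higher and 1, 1 and 3 lower in newborn neurons, in label order. The part of these in the results was not tested.

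**Figure D2:**
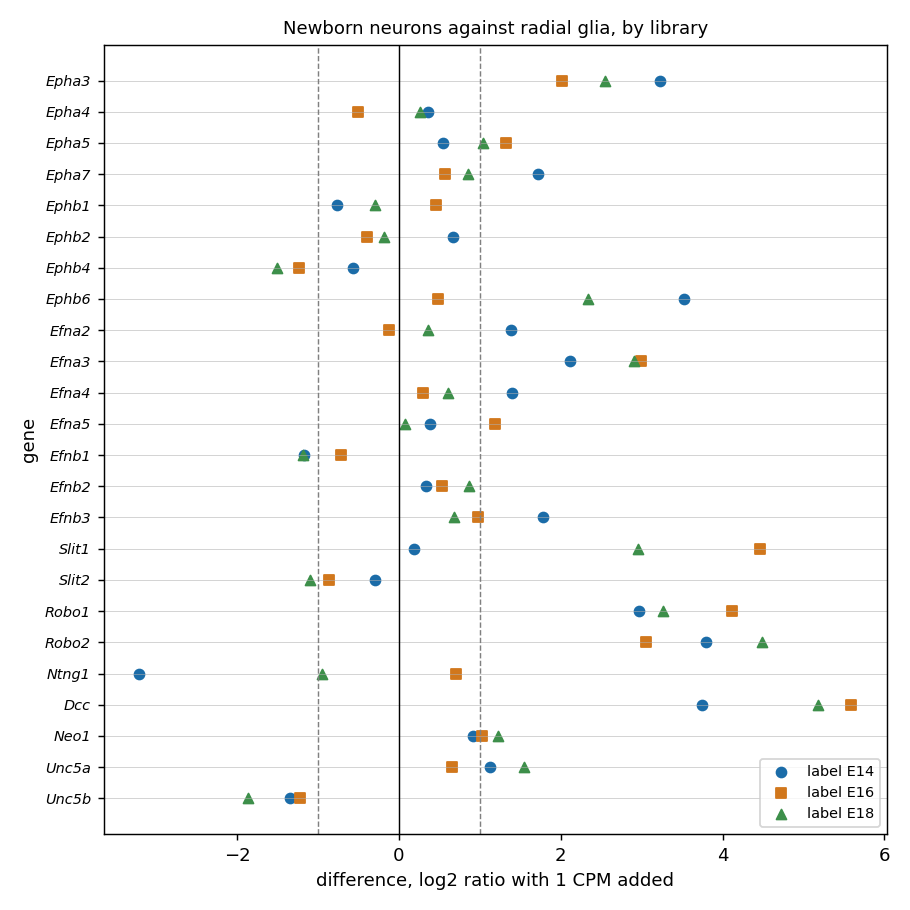
Log2 ratio of newborn neurons over radial glia with 1 CPM added, for the 24 tested guidance genes in each library (marker shape and colour). Dashed lines mark 2-fold, and a point beyond them counts only where the higher class had at least 5 CPM. Epha3, Efna3, Robo1, Robo2 and Dcc lie to the right of 2-fold in all 3 libraries.

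Among the EphA receptors, which bind mainly ephrin-A ligands, Epha3 was low in radial glia and high in the cells after them. In radial glia it had 34.9 CPM (30.3 to 40.1), 26.1 (24.7 to 27.7) and 40 (37.6 to 42.5) in label order. In intermediate progenitors, the dividing daughters of radial glia, it had 167.3 CPM (156.4 to 178.8), 121.2 (111.4 to 131.7) and 147.3 (140.2 to 154.7). In newborn neurons it had 333.2 CPM (319.9 to 347.0), 109.3 (100.8 to 118.4) and 239.3 (231.9 to 246.9). Newborn neurons were 9.30-fold, 4.06-fold and 5.86-fold above radial glia, and every newborn value lay above every radial glial one. In the library labelled E16, intermediate progenitors and newborn neurons had overlapping intervals. In maturing neurons Epha3 had 93.3 CPM in the library labelled E14 and 71.6 CPM in that labelled E18.

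Epha4, a receptor that binds both ephrin classes, was high in progenitors already. Radial glia had 214.0 CPM (202.3 to 226.2), 194.2 (190.2 to 198.2) and 229.9 (224.1 to 235.9). Newborn neurons had 274.3 CPM (262.2 to 286.8), 136.0 (126.4 to 146.0) and 276.1 (268.2 to 284.2), so the library labelled E16 was the low one. Maturing neurons had 72.9 CPM in the library labelled E14 and 103.2 CPM in that labelled E18, both below every progenitor value. The 3 clusters of maturing neurons labelled E14 had 129.1, 40.5 and 42.8 CPM of Epha4, and the first is the one scored close to newborn neurons. Epha5 had 150.5, 61.8 and 116.5 CPM in radial glia and 219.6, 155.9 and 240.1 CPM in newborn neurons. The interval of the library labelled E16 lay below those of the other labels in both classes. In cells of the GABAergic lineage, the future inhibitory neurons, Epha5 had 364.3 CPM (303.0 to 434.4), 39.1 (24.8 to 58.6) and 382.8 (323.2 to 450.2). Those classes held 56, 74 and 69 cells. Epha7 had 16.8 to 23.7 CPM in radial glia and 57.5, 33.1 and 43.4 CPM in newborn neurons.

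Epha6 had 1.33 CPM (0.963 to 1.78) in maturing neurons labelled E14 and 18.5 CPM (15.5 to 21.9) in those labelled E18, its highest level, and 12.8 CPM (9.99 to 16.1) in newborn neurons labelled E16. Epha8 was highest in Cajal-Retzius cells, the early-born Reln-expressing neurons of the marginal zone, at 8.48 CPM from 8 UMIs in the library labelled E18. Epha1 and Epha10 gave 25 and 20 UMIs in all kept cells.

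Among the EphB receptors, which bind mainly ephrin-B ligands, Ephb1 was lower in intermediate progenitors than in the classes on either side. The 3 clusters of intermediate progenitors had 27.3, 7.36 and 8.55 CPM of Ephb1, the first being the one with most of the cells labelled E14. Ephb1 had 44.2 CPM (38.9 to 49.9), 30.1 (28.6 to 31.7) and 58.8 (55.9 to 61.9) in radial glia. In intermediate progenitors it had 20.2 CPM (16.6 to 24.5), 3.92 (2.33 to 6.20) and 16.2 (13.9 to 18.8). Newborn neurons had 25.6 CPM (22.0 to 29.7), 42.0 and 48.0, so that the intervals of intermediate progenitors and newborn neurons overlapped in the library labelled E14. Maturing neurons had 67.9 CPM in the library labelled E14 and 105.8 CPM in that labelled E18. Ephb2 had 21.1 CPM (17.5 to 25.1), 52.3 (50.2 to 54.4) and 53.4 (50.6 to 56.4) in radial glia, with the library labelled E14 low. Its newborn neurons had 34.2, 39.8 and 46.7 CPM, and Cajal-Retzius cells 70.9 CPM in the library labelled E16 and 112.4 CPM in that labelled E18.

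Ephb6, a receptor without kinase activity, had 2.23, 1.26 and 1.61 CPM in radial glia. Newborn neurons had 36.0 CPM (31.7 to 40.8), 2.16 (1.12 to 3.77) and 12.2 (10.6 to 14). The library labelled E14 was highest and that labelled E16 was near the level of its radial glia. Ephb3 had 9.25, 6.18 and 5.55 CPM in radial glia and 0.285, 3.60 and 0.423 CPM in newborn neurons, and it reached 20.6 and 21.0 CPM in the GABAergic lineage labelled E14 and E18, from 7 and 8 UMIs. Ephb4, known from veins, had 11.3, 8.97 and 8.89 CPM in radial glia and 7.26, 3.24 and 2.48 CPM in newborn neurons.

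**Figure D3:**
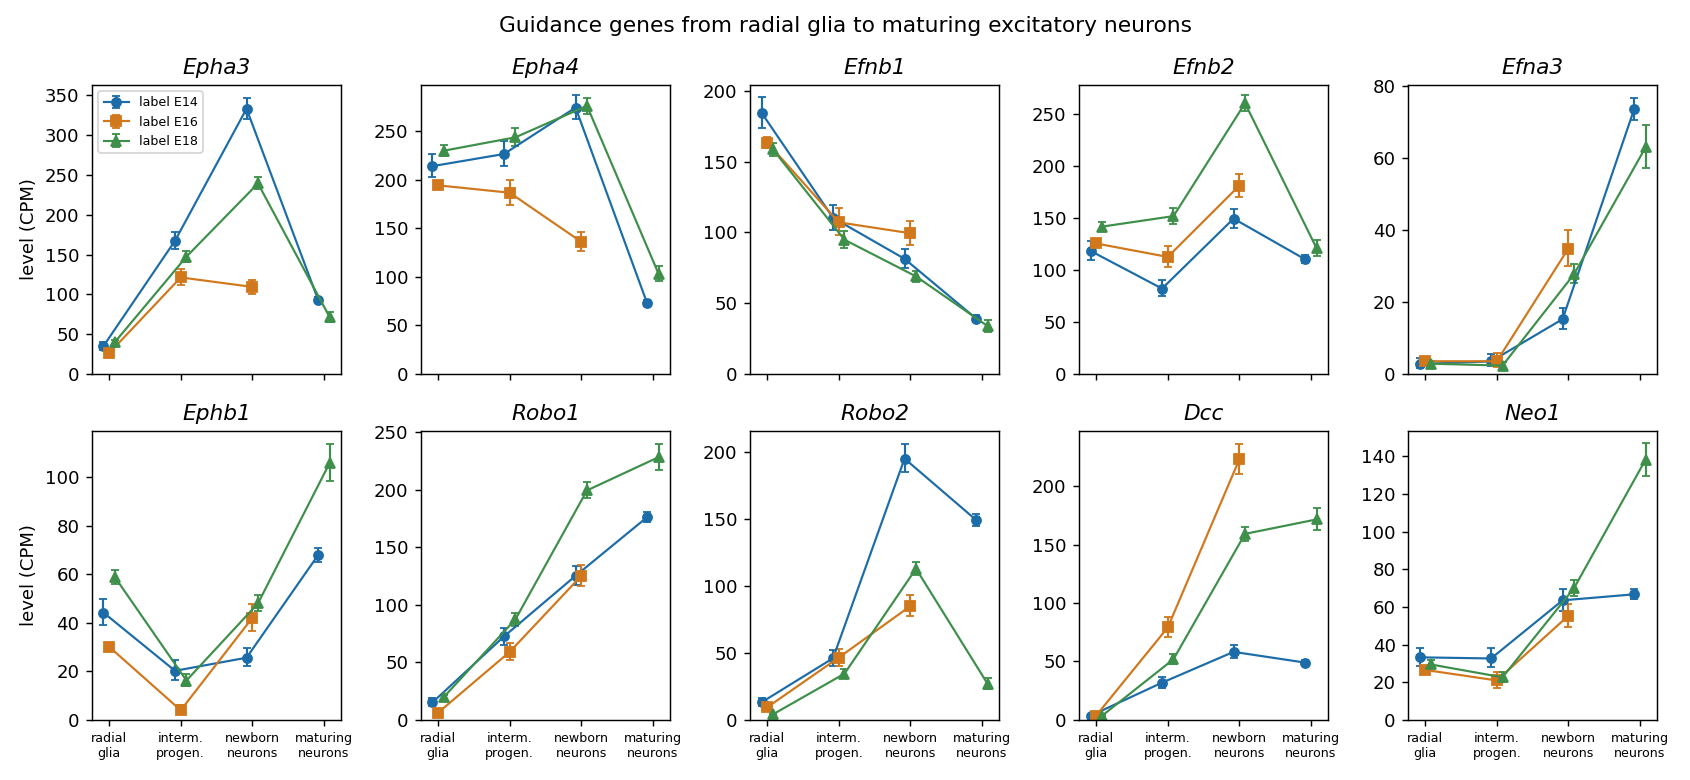
Levels in CPM of 10 guidance genes in radial glia, intermediate progenitors, newborn and maturing excitatory neurons. Each line is a library, error bars are exact Poisson 95% intervals, and maturing neurons labelled E16 (1 cell) are not drawn. Epha3 is highest in newborn neurons labelled E14 and E18, Efnb1 is lower at each step, Ephb1 is lowest in intermediate progenitors, and Efna3 is highest in maturing neurons.

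Of the ephrin-B ligands, which span the membrane, Efnb1 was lower and Efnb2 higher in newborn neurons than in radial glia. Efnb1 had 184.6 CPM (173.7 to 195.9), 163.5 (159.9 to 167.2) and 158.6 (153.7 to 163.5) in radial glia. Intermediate progenitors had 110.3, 107.1 and 94.8 CPM, and newborn neurons 81.3 CPM (74.8 to 88.3), 99.4 (91.3 to 108.1) and 68.9 (65.0 to 73.0). Maturing neurons had 39.1 CPM in the library labelled E14 and 33.8 CPM in that labelled E18, the lowest of the 4 classes. Newborn neurons were 2-fold lower than radial glia in the libraries labelled E14 and E18, and the ratio was under 2-fold in that labelled E16. Efnb2 had 118.1 CPM (109.5 to 127.3), 125.2 (122.0 to 128.5) and 141.4 (136.9 to 146.1) in radial glia and 149.1 CPM (140.2 to 158.4), 180.8 (169.8 to 192.3) and 259.9 (252.2 to 267.8) in newborn neurons. Each library's newborn neurons lay above its radial glia, by less than 2-fold. Efnb3 had 9.07, 18.4 and 14.6 CPM in radial glia and 33.6, 37.3 and 24.0 CPM in newborn neurons. The GABAergic lineage had 61.7, 203.7 (168.9 to 243.6) and 60.3 CPM of Efnb3, with the library labelled E16 high.

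Of the ephrin-A ligands, which are tethered to the membrane by a lipid anchor, Efna3 was low in progenitors and high in neurons. Radial glia had 2.74, 3.51 and 2.83 CPM, and intermediate progenitors 3.47, 3.49 and 2.30 CPM. Newborn neurons had 15.2 CPM (12.5 to 18.4), 34.8 (30.0 to 40) and 27.7 (25.2 to 30.4). Maturing neurons had 73.5 CPM (70.6 to 76.5) in the library labelled E14 and 62.9 CPM (57.3 to 69.0) in that labelled E18, above every newborn value. Of the tested ephrin-A genes, Efna5 had the widest spread between libraries in both classes. It had 5.65, 18.9 (17.7 to 20.2) and 8.30 CPM in radial glia and 7.69, 44.5 (39.1 to 50.4) and 8.76 CPM in newborn neurons, so that the library labelled E16 was high in both. Efna2 ranged from 14.7 to 26.1 CPM in radial glia and from 24.0 to 40.3 CPM in newborn neurons, and Efna4 from 8.39 to 10.2 CPM and from 12.8 to 23.8 CPM. Efna1 had no more than 7.11 CPM in any class and library of at least 50 cells.

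Of the Slits, Slit2 was higher in radial glia than in newborn neurons, by at least 2-fold in the library labelled E18 and with overlapping intervals in that labelled E14. It had 4.79 CPM (3.19 to 6.93), 21.7 (20.4 to 23.1) and 14.7 (13.3 to 16.3) in radial glia, with the library labelled E14 low. Newborn neurons had 3.70 (2.42 to 5.43), 11.5 and 6.34 CPM. Slit1 had 1.37, 0.706 and 0.394 CPM in radial glia. Its intermediate progenitors had 6.17, 27.0 (22.5 to 32.2) and 10.9 CPM, and its newborn neurons 1.71, 36.6 (31.7 to 41.9) and 9.78 CPM, with the library labelled E16 highest in both. Maturing neurons had 14.8 CPM of Slit1 in the library labelled E14 and 37.8 CPM in that labelled E18. Slit3 was under 1 CPM in radial glia of all libraries and had 0.570, 5.40 and 4.41 CPM in newborn neurons. In maturing neurons it had 7.77 CPM (6.85 to 8.78) in the library labelled E14 and 25.3 CPM (21.7 to 29.2) in that labelled E18.

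Robo1, the Slit receptor, had 15.1 CPM (12.1 to 18.6), 6.25 (5.55 to 7.01) and 19.9 (18.2 to 21.7) in radial glia. It had 72.5, 59.1 and 87.4 CPM in intermediate progenitors, and 125.2 CPM (117.0 to 133.7), 125.2 (116.0 to 134.8) and 199.5 (192.8 to 206.4) in newborn neurons. Maturing neurons had the highest level of the 4 classes, 176.2 CPM in the library labelled E14 and 228.4 CPM in that labelled E18. Robo2 also differed between radial glia, which had 13, 9.33 and 4.05 CPM, and newborn neurons, which had 194.8 CPM (184.6 to 205.4), 84.8 (77.3 to 92.8) and 112.7 (107.7 to 118.0). In maturing neurons Robo2 had 149.0 CPM (144.9 to 153.2) in the library labelled E14 and 26.9 CPM (23.3 to 31.0) in that labelled E18. Cajal-Retzius cells had 133.3 CPM of Robo2 in the library labelled E16 and 182.3 CPM in that labelled E18. Robo3, known from midline crossing in the hindbrain and spinal cord, was highest in the library labelled E16. Radial glia labelled E14 had 0 UMIs, which allows up to 0.514 CPM, while those labelled E16 had 6.70 CPM (5.98 to 7.48) and those labelled E18 1.5 CPM (1.06 to 2.05). The GABAergic lineage labelled E16 had 28.9 CPM of Robo3 from 17 UMIs.

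Maturing neurons came from 4 clusters that differed in Robo2 and Dcc. The 3 clusters made up almost wholly of the library labelled E14, with 989, 730 and 680 of its cells, had 245.6, 52.3 and 165.7 CPM of Robo2. They had 32.9, 75.5 and 31.2 CPM of Dcc in the same order. The cluster with 530 cells labelled E18 had 25.3 CPM of Robo2 and 175.2 CPM of Dcc, below and above all 3. Robo1 ranged from 144.2 to 226.6 CPM over the 4 clusters. These are descriptions of clusters and carry no test.

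Dcc, the netrin receptor that mediates attraction, was low in radial glia, with 3.42 CPM (2.09 to 5.29), 3.66 (3.13 to 4.25) and 3.42 (2.74 to 4.22). Intermediate progenitors had 31.8 CPM (27.1 to 37.0), 79.1 (71.2 to 87.7) and 51.9 (47.7 to 56.3). Newborn neurons had 58.2 CPM (52.7 to 64.2), 223.1 (210.9 to 235.9) and 159.3 (153.3 to 165.5). The log2 ratios to radial glia, 3.74, 5.59 and 5.18, rest on low radial glial levels. Over the alternatives they ran from 2.77 to 3.74, from 4.72 to 6.29 and from 4.11 to 5.39 for Dcc. In intermediate progenitors and newborn neurons the library labelled E16 was highest and that labelled E14 lowest. The cluster of intermediate progenitors that held 263 cells labelled E14 and 61 labelled E16 had 15.3 CPM of Dcc, and the others had 56.5 and 98.7 CPM, so the mix of clusters moves with this order and its part was not tested. Cajal-Retzius cells had 305.2 CPM of Dcc in the library labelled E16 and 327.5 CPM in that labelled E18. In the GABAergic lineage it had 0 UMIs in the library labelled E14, which allows up to 8.81 CPM, then 254.7 CPM (215.6 to 298.9) and 15.7 CPM (5.77 to 34.2) in those labelled E16 and E18. Neogenin (Neo1), a relative of Dcc that also binds repulsive guidance molecules, had 33.2, 26.5 and 29.4 CPM in radial glia and 63.5, 55.3 and 70.0 CPM in newborn neurons. Maturing neurons had 66.7 CPM of Neo1 in the library labelled E14 and 138.3 CPM in that labelled E18.

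After each cell was thinned to 2000 UMIs, Dcc gave a UMI in 1.01%, 0.598% and 0.785% of radial glia, in label order. It did so in 10.8% (8.86 to 13), 30.2% (26.6 to 34.0) and 24.2% (22.2 to 26.2) of newborn neurons, with exact binomial intervals. The values before thinning were 4.73%, 4.32% and 4% of radial glia and 28.0%, 67.1% and 59.5% of newborn neurons. Erythroid cells labelled E16, which should lack Dcc, gave 0.813% (0.0206 to 4.45) after thinning, from 1 of 123 cells, at a median depth of 32368 UMIs. The radial glial shares of Dcc lie within that interval, and at this depth they cannot be told from the erythroid share. Haemoglobin took 817174 CPM of the erythroid UMIs labelled E16, which lowers every other gene there, before and after thinning. With 1 and 9 erythroid cells, the libraries labelled E14 and E18 have no such reference of their own. Radial glia had median depths of 12944.5, 13554 and 12654 UMIs. Robo1 gave a UMI in 2.77%, 1.16% and 2.97% of radial glia and in 20.5%, 17.9% and 30.7% of newborn neurons after thinning, and in 0 of 123 erythroid cells, which allows a share of up to 2.44% by the limit of 3 counts and 2.95% by the exact interval. The radial glial share of Robo1 labelled E16 lay under both limits, that labelled E14 between them and that labelled E18 above both. In a further 98 cells, the microglia, mural and endothelial cells of the 3 libraries, at a median depth of 14976.5 UMIs, thinning left a UMI of Robo1 in 5.10% (1.68 to 11.5) and of Dcc in 1.02% (0.0258 to 5.55). These shares lie above those of radial glia, with intervals that include them except for Robo1 labelled E16. Endothelial cells had 33.5 CPM (22.5 to 48.2) of Robo1, so for Robo1 these cells are not known to lack the gene. A newborn neuron thinned to 2000 UMIs held a mean of 2.93, 2.55 and 3.06 different guidance genes in label order, and a radial glial cell 1.66, 1.55 and 1.69. An Eph receptor and an ephrin were seen in the same cell in 44.1%, 35.8% and 45.6% of newborn neurons and in 29.5%, 27.7% and 33.0% of radial glia, and in 0 of 123 erythroid cells labelled E16, with the same limits. Taken singly, any Eph receptor was seen in 82.1%, 62.1% and 79.5% of newborn neurons, and any ephrin in 51.5%, 56.8% and 56.8%. Whether both were seen together more often than these shares give was not tested. EphA receptors with ephrin-A were seen in 13.3%, 8.87% and 10.9% of newborn neurons and 3.78%, 4.99% and 4.76% of radial glia. For EphB receptors with ephrin-B the shares were 8.63%, 8.87% and 8.52% against 7.05%, 6.75% and 8.41%. Erythroid cells held a mean of 0.0732 guidance genes at that depth. A Robo and a Slit were seen in the same cell in 4 of 927 newborn neurons labelled E14, 15 of 609 labelled E16 and 23 of 1855 labelled E18.

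Netrin RNA was scarce. Ntn1, Ntn3, Ntn4 and Ntn5 gave 128, 59, 95 and 31 UMIs in all kept cells, and each averaged under 1 CPM over the libraries. Among classes and libraries of at least 50 cells, Ntn1 was highest at 9.09 CPM (6.33 to 12.6), in an unnamed cluster led by Fgf17, Zic4 and Fgf8 in the library labelled E16. The 42 cells of that cluster labelled E18 had 13.4 CPM (5.81 to 26.5) of Ntn1. Ntng1 and Ntng2 encode netrin-Gs, which are anchored to the membrane and do not bind Dcc. Ntng1 had 13.5 CPM (10.7 to 16.9), 6.23 and 4.76 CPM in radial glia and 0.570 CPM (0.155 to 1.46), 10.8 (8.24 to 13.9) and 1.99 (1.37 to 2.80) in newborn neurons. The library labelled E14 was thus highest in radial glia and lowest in newborn neurons. Maturing neurons had 16 CPM of Ntng1 in the library labelled E14 and 24.4 CPM in that labelled E18. Ntng2 had under 1 CPM in radial glia and 10.8, 9 and 8.82 CPM in newborn neurons, and reached 27.0 and 27.6 CPM in Cajal-Retzius cells labelled E16 and E18.

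The Unc5 receptors named by the rule were low in the excitatory lineage. Unc5b had 4.45, 11.8 (10.8 to 12.8) and 5.47 CPM in radial glia and 1.14, 4.50 and 0.785 CPM in newborn neurons. Cajal-Retzius cells had 26.2 CPM of Unc5b in the library labelled E16 and 44.5 CPM in that labelled E18. With stricter cell filters, which gave 184 newborn neurons and 572 radial glia, the log2 ratio of Unc5b in the library labelled E16 went from -1.22 to 0.28. Among classes and libraries of at least 50 cells, Unc5a was highest in maturing neurons, at 13.6 CPM in the library labelled E14 and 14.5 CPM in that labelled E18. The 16 Cajal-Retzius cells labelled E14 had 22.0 CPM (8.84 to 45.3) of Unc5a from 7 UMIs. Unc5c had under 1 CPM in all 4 classes of the excitatory lineage. Unc5d, the relative outside the rule, had 13.7 CPM (10.9 to 17.0), 4.07 (3.51 to 4.69) and 10.7 (9.43 to 12) in radial glia and 434.5 CPM (419.2 to 450.2), 73.3 (66.3 to 80.8) and 316.5 (307.9 to 325.1) in newborn neurons. The library labelled E16 was the low one in both classes.

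Robo4, Efna1 and Unc5b had higher levels in endothelial cells, and Epha7, Slit3 and Unc5c in meningeal fibroblasts, than in the excitatory lineage. The vascular classes were small, so their UMIs were summed over libraries, 29 endothelial and 32 mural cells in all, and the intervals do not cover differences between libraries. Robo4, the Robo of blood vessels, had 79.8 CPM (62.1 to 101.0) in endothelial cells, which held 69 of its 83 UMIs. Efna1 had 146.8 CPM (122.4 to 174.7) there, Unc5b 228.9 CPM (198.2 to 263.1), Ephb4 54.3 CPM (39.9 to 72.3), Efnb2 85.6 CPM (67.2 to 107.4) and Epha2 33.5 CPM (22.5 to 48.2). Of the 198 endothelial UMIs of Unc5b, 121, 15 and 62 came from the 8, 16 and 5 cells in label order. Endothelial cells labelled E14 also held 82909 CPM of haemoglobin RNA, against 601.5 and 189.0 CPM, and the part of this was not tested. Meningeal fibroblasts, 93 cells labelled E16, had 248.9 CPM (222.2 to 277.9) of Epha7, 184.9 CPM of Efnb1, 79.8 CPM of Robo1, 47.4 CPM of Slit3 and 29.2 CPM of Unc5c. Cells of the choroid plexus cluster had 65.0 CPM (55.7 to 75.3) of Slit2 in the library labelled E16 and 85.2 CPM (71.6 to 100.5) in that labelled E18. The unnamed cluster led by Fgf17, 320 cells labelled E16, had 82.1 CPM (73.3 to 91.6) of Efna5 and 49.1 CPM of Slit2.

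**Figure D4:**
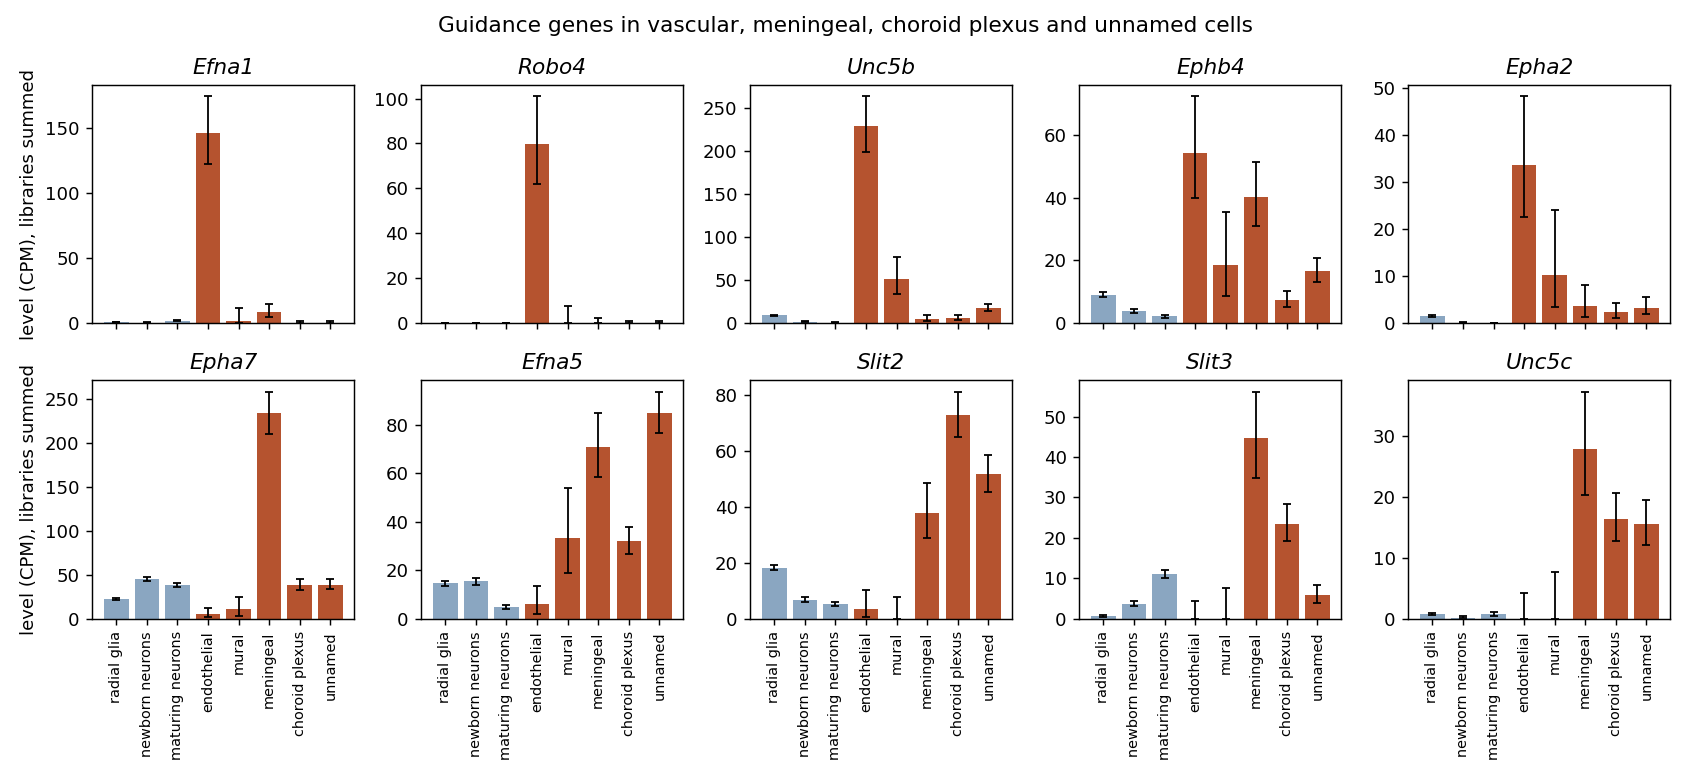
Levels in CPM of 10 guidance genes with the UMIs of all libraries summed, in 3 classes of the excitatory lineage (blue) and in endothelial, mural, meningeal, choroid plexus and unnamed cells (red). Bars are levels and error bars exact Poisson 95% intervals. Efna1, Robo4 and Unc5b are highest in endothelial cells, Epha7 and Slit3 in meningeal fibroblasts and Slit2 in choroid plexus cells.

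In radial glia, 7, 4 and 3 of the 24 guidance genes were 2-fold apart between labels. With label E16 against E14, 4 of 24 were higher (Slit2, Efna5, Ephb2 and Unc5b), beside 2.44% of all tested genes, and 3 were lower (Epha5, Robo1 and Ntng1), beside 6.36%. With label E18 against E14, 2 were higher (Slit2 and Ephb2), beside 1.13%, and 2 lower (Robo2 and Ntng1), beside 2.71%. With label E18 against E16, 1 was higher (Robo1), beside 1.88%, and 2 were lower (Efna5 and Robo2), beside 0.704%. Ntng1, label E16 against E14, was less than 2-fold apart in 6 of 10 alternatives, and Robo2, label E18 against E16, in 5 of 11. Robo1, Efna5, Ephb2 and Unc5b in the first comparison, Ephb2, Ntng1 and Robo2 in the second and Efna5 in the third also came under 2-fold in at least 1. The 3 comparisons share libraries and are not independent. Slit2 in radial glia was 3.91-fold higher with label E16 and 2.71-fold higher with label E18 than with label E14. Radial glia labelled E14 and E18 lay mostly in the same clusters and those labelled E16 in others, so for label E16 a difference between labels and a difference in the kinds of cells in the class cannot be told apart. In radial glia all 3 tested early genes (Hmga2, Crabp2 and Ccnd1) were also 2-fold higher with label E16 than with E14 or E18, and all 4 late genes were lower with label E16 than with E14. With label E18 against E14, the late genes Tnc, Apoe and Aldoc were lower and Crabp2 was higher. The heat shock genes Hspa1a and Hspa1b were higher with label E18 than with either other label. Their part in the differences between labels was not tested.

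In newborn neurons, 10 guidance genes were 2-fold apart between labels E16 and E14, 6 between E18 and E16 and 4 between E18 and E14. With label E16 against E14, 6 of 24 genes were higher (Slit1, Ntng1, Efna5, Dcc, Slit2 and Efna3), beside 4.34% of all tested genes, and 4 were lower (Ephb6, Epha3, Robo2 and Epha4), beside 4.74%. With label E18 against E14, 2 were higher (Slit1 and Dcc), beside 1.63%, and 2 lower (Ephb6 and Ephb4), beside 1.76%. With label E18 against E16, 3 were higher (Ephb6, Epha3 and Epha4), beside 2.12%, and 3 lower (Efna5, Ntng1 and Slit1), beside 2.50%. Newborn neurons of the 3 labels lay in different clusters, and the same limit holds. In newborn neurons, too, Hmga2, Crabp2 and Ccnd1 were 2-fold higher with label E16 than with E14 (median log2 ratio 4.12) and lower with label E18 than with E16 (median -2.80). Hspa1a and Hspa1b were higher with label E18 than with E14. Their part here was not tested either. In maturing neurons, label E18 against E14, 3 genes were higher (Dcc, Slit1 and Neo1), beside 1.89%, and 2 lower (Robo2 and Slit2), beside 1.70%. Robo2 was 5.38-fold lower and Dcc 3.45-fold higher with label E18. Epha4 and Efna3 in newborn neurons, label E16 against E14, were less than 2-fold apart in 5 of 8 alternatives each, and Epha4, label E18 against E16, in 4 of 10. Epha3, Ntng1, Robo2 and Slit2 in the first of these comparisons also came under 2-fold in at least 1. So did Efna5, Epha3, Ntng1 and Slit1, label E18 against E16, and Ephb4, Ephb6 and Slit1, label E18 against E14. Slit1 and Slit2 did so in maturing neurons. For 3 of these genes between labels the direction changed under another setting. Efna3, label E16 against E14 in newborn neurons, had a log2 ratio of 1.14, but -0.22 and -0.41 under other clusterings. Robo2 in the same comparison had -1.19, but 1.03 with stricter cell filters. Under those filters newborn neurons numbered 52, 184 and 509 in label order. Ntng1, label E18 against E16, had -1.98, but 0.27 with those filters.

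**Figure D5:**
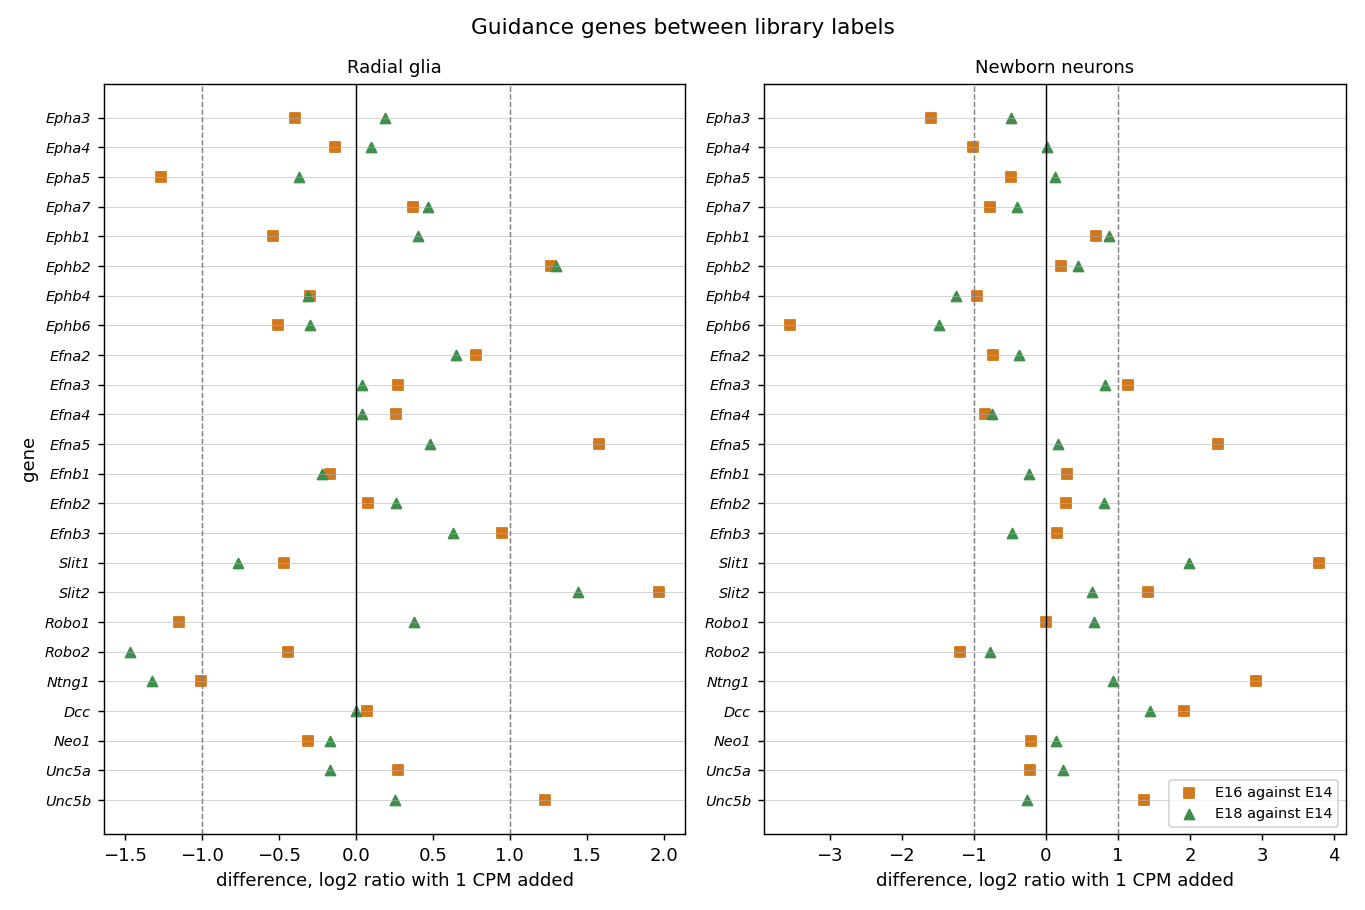
Log2 ratios with 1 CPM added for the 24 tested guidance genes in radial glia (left) and newborn neurons (right), for label E16 against E14 (squares) and E18 against E14 (triangles), on different horizontal scales. Dashed lines mark 2-fold, which counts only where the higher group had at least 5 CPM. Slit2 and Ephb2 lie right of 2-fold with both labels in radial glia, and Slit1 and Dcc do so in newborn neurons.

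Partners and effectors of the same pathways were followed in 3 further lists. Of the 15 genes of the Eph and ephrin list 13 were tested, and 4, 3 and 5 were higher and 3, 2 and 1 lower in newborn neurons than in radial glia, in label order. Of all tested genes 11.7%, 13.3% and 12.2% were higher and 17.3%, 16.4% and 16.6% lower, and the counts of all 3 lists stand beside these shares. Rgs3, a regulator of G protein signalling that binds ephrin-B, was lower in all 3 libraries, with 26.9, 17.1 and 21.8 CPM in radial glia and 0.712, 3.42 and 0.966 CPM in newborn neurons. Chn1, a Rac-inactivating protein downstream of Epha4, was higher, with 20.2, 13.4 and 21.5 CPM in radial glia and 66.2, 38.7 and 53.9 CPM in newborn neurons. Of the 12 genes of the Slit and Robo list, all tested, 2 were higher in each library, Srgap1 and Pak1, and 1, 2 and 2 were lower. Srgap1, a GTPase-activating protein that binds Robo1, had 33.7, 13.2 and 34.0 CPM in radial glia and 82.3, 67.3 and 80.8 CPM in newborn neurons.

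Of the 22 genes of the netrin, Dcc and Unc5 list 21 were tested, and 8, 9 and 8 were higher and 2 lower in each library. The lower ones were Rgma, a ligand of neogenin, and Dock1, a Rac activator. Rgma had 39.4, 28.4 and 44.4 CPM in radial glia and 1.99, 4.68 and 2.17 CPM in newborn neurons. Dscam, a cell adhesion molecule that binds netrin, had 1.03, 0.0856 and 0.236 CPM in radial glia and 23.6, 16.6 and 47.4 CPM in newborn neurons. The medians of the log2 ratio were 0.67, 0.80 and 0.73 for the Eph and ephrin list, 0.39, 0.22 and 0.40 for the Slit and Robo list, and 0.69, 0.45 and 0.84 for the netrin list, which includes Unc5d, beside -0.11, -0.07 and -0.08 for all tested genes. In newborn neurons, label E16 against E14, 3 genes of the Eph and ephrin list were higher and none lower, none of the Slit and Robo list was 2-fold apart, and 1 of the netrin list was higher (Flrt2) and 4 were lower, among them Unc5d, beside 4.34% and 4.74% of all tested genes.

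By the correlation of log2(CPM + 1) over 20 classes and libraries, the guidance genes most alike were Efnb2 with Efna2 (Pearson's r = 0.89), Efnb2 with Epha5 (0.85) and Robo2 with Robo1 (0.84, as for Robo2 with Epha3). The points share libraries and depth, and 1 of them, the erythroid cells, is low for every gene. The order rests on that point. Without it r was 0.69, 0.73 and 0.78 over 19 points, and 0.76 for Robo2 with Epha3. Of the 10 pairs with the highest r over 20 points, Robo1 with Efna2 then came first, at 0.79 (0.82 with the erythroid point), and Robo1 with Efnb2 had 0.74.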

How the data were processed

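Single-cell 3' RNA libraries of rat cortex, 1 per label, were deposited as counts of UMIs per gene and cell, made with Cell Ranger 6.0.1 on build mRatBN 7.2 per the submitters' processing notes. The annotation and the counting of intronic reads are not given in the sources used here. Cells with at least 1000 genes and at most 10% mitochondrial UMIs (13 genes) were kept, which left 4444, 5193 and 5690 cells. The cells with the highest Scrublet scores, 0.8% per 1000 cells, were removed as likely doublets (158, 216 and 259). Cells were clustered with Scanpy 1.11.5 and leidenalg 0.10.2 on 2000 variable genes without the guidance genes and companion lists (30 components, 15 neighbours, resolution 1), and the 26 clusters were compared with markers with 50 CPM added to each level, which left 1 unnamed. That amount, and splitting 1 mixed cluster into microglia and endothelial cells, were chosen after seeing the clusters. For each class of a library, a gene's UMIs were added up and scaled to the UMIs of all genes there, as CPM. With 1 library per label no test was run. Poisson and Clopper-Pearson 95% intervals (scipy 1.17.1) cover counting error only, and a count of 0 was set at an upper limit of 3 counts. Genes reaching 20 CPM in a class and library of at least 50 cells were described in full, and in each companion list at most the 3 largest log2 ratios per comparison, with further genes of short lists, chosen after their values were seen. The members and lists were chosen with earlier results of these data known. The fold rule was run on simulated sums for 1 comparison, radial glia labelled E18 against E14. These held changes larger than 2-fold and counting error only, so changes near 2-fold and spread between libraries were not covered. Promoter and protein sequences were not used here. The alternatives covered cell filters, doublets, clustering, variable genes, the expression minimum, the CPM added and the weighting of cells.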

Additional observations from a re-analysis of the deposited data

Results flagged for a closer look

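The difference of Slit2 between labels E18 and E14 went in opposite directions in 2 classes. Its log2 ratio was 1.44 in radial glia and -1.44 in maturing neurons, a gap of 2.88. The maturing neurons labelled E18 held 11 UMIs of Slit2. Their main cluster had 0.821 CPM, and the clusters of maturing neurons labelled E14 had 5.60, 0.165 and 13.1 CPM. Ntng1, label E16 against E14, had -1.01 in radial glia and 2.91 in newborn neurons, a gap of -3.92. With 1 library per label neither gap was tested.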

How the results depend on the processing

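Of the 76 log2 ratios past 2-fold, 700 values were recomputed under alternatives: 695 kept their sign, 5 reversed and 85 came under 2-fold. These include values that could not reverse. The minimum mean of 20 CPM leaves a ratio unchanged, and adding 5 CPM cannot change its sign. Of those that kept their sign, 445 lay within the counting interval of the main ratio and 250 beyond it. That interval was computed without the added CPM, so some main ratios already lie outside their own. Dcc in newborn neurons against radial glia labelled E16, at 5.59 with an interval of 5.70 to 6.17, is one. The 250 are therefore not all shifts with the processing. With at least 2000 genes and at most 5% mitochondrial UMIs, Unc5b in newborn neurons against radial glia labelled E16 was 0.28, Robo2 in newborn neurons, label E16 against E14, 1.03, and Ntng1, label E18 against E16, 0.27. Efna3 in newborn neurons, label E16 against E14, was -0.22 at resolution 0.5 and -0.41 where libraries were clustered separately. Of 99 recomputed counts of guidance genes 2-fold apart, 84 stayed within 1.5 times. In newborn neurons, label E18 against E14, the count went from 4 to 8 with the stricter cells, of which 52 were labelled E14. In radial glia, label E18 against E16, it went from 3 to 1 at resolution 2, and in newborn neurons, label E18 against E16, from 6 to 10 where they were clustered separately. With a minimum mean of 20 CPM, which leaves 15 guidance genes tested, newborn neurons against radial glia gave 7 with label E16 and 8 with E18. Radial glia then gave 3 with E16 against E14 and 2 with E18 against E14. Newborn neurons gave 5 with E16 against E14, 1 with E18 against E14 and 2 with E18 against E16, and maturing neurons gave 3. With 5 CPM added, radial glia gave 4, 2 and 1 with E16 against E14, E18 against E14 and E18 against E16, and maturing neurons 3. The causes were not tested, apart from the fewer genes at the higher minimum. The shares of all tested genes under these alternatives are not given here. Whether the guidance genes moved more than other genes was not tested.

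Epha3, Robo1, Robo2 and Dcc stayed at least 2-fold higher in newborn neurons than in radial glia of each library under every alternative run, with log2 ratios down to 1.49, 2.70, 1.53 and 2.77. Efna3 did so except for 1 alternative in the library labelled E14, where it was 0.77. The minimum mean of 20 CPM could not change any of these ratios. Looser cell filters and no removal of doublets left 9 newborn neurons labelled E14, so their comparisons were not run. Naming with 10 CPM added, chosen after seeing the data, left 14 labelled E14 and 10 labelled E16, and theirs were not run either. No paired analysis was possible because each label has 1 library. The libraries, their cells and any batch cannot be told apart from the labels.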
